A study of Mus musculus with 4 samples.

Results

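Genes that mark blood or lymphatic endothelium were followed in the RNA of visceral and parietal mesothelium, namely Pecam1, Esam, Cd34, Emcn, Tie1, Eng, Vwf, Egfl7, Prox1 and Sox17. A gene was taken where the platform annotation of the array paired a probe with that symbol alone, and all 10 of the 10 genes were found among 19938 genes measured, each with 1 probe. Visceral mesothelium was taken from the omentum, and parietal mesothelium was teased off the skeletal muscle of the body wall, of untreated adult Wt1-cre;Rosa26ReYFP mice on a C57BL/6 background. Both groups carry both alleles, in which Cre driven from the Wt1 gene switches on a yellow fluorescent reporter in cells that make Wt1. No sort on that reporter is described for the array samples, so the RNA came from the isolated tissue as a whole, which the study judged by the reporter to be almost entirely mesothelial. For each tissue, 2 RNA samples that the labels call biological replicates were hybridized to Mouse Gene 1.0 ST arrays of Affymetrix, 1 array each. The labels do not name the animals used for each, so p-values reflect only how far these 4 arrays scatter, and so few arrays keep the precision low.

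Endothelial cells line blood and lymphatic vessels, and vessels run in the connective tissue under every mesothelium. Neighbouring endothelial cells are joined by adhesion molecules of the immunoglobulin and cadherin families, carry sialomucins on the side facing the blood, and receive vessel signals through receptors such as those of the angiopoietin and BMP systems. SOX factors of the F group act in the formation of arteries, and Prox1 sets lymphatic identity. Few of these genes are exclusive to endothelium. Pecam1 is also found on platelets and leukocytes, Esam on platelets and blood stem cells, Vwf in megakaryocytes, Eng on macrophages and stromal cells, and Cd34 on blood progenitors and fibroblasts.

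Of the 10 markers, Cd34 was higher in visceral and Esam higher in parietal mesothelium, and the other 8 did not pass the test. The call required an adjusted p under 0.05 by limma with Benjamini-Hochberg adjustment over all genes and a fold of at least 1.5. Both calls were lost at a fold of at least 2, and with a limma test against a fold of 1.5. Over all genes, 521 were called for visceral and 457 for parietal mesothelium at a fold of 2, and 393 and 331 by the limma test. The test named in the study's methods also lost both after adjustment over all genes (adjusted p = 0.121 for Cd34 and 0.138 for Esam). With 2 against 2 arrays, that test as recomputed here called 0 of the 19938 genes in each direction. Without adjustment it called 876 for visceral and 706 for parietal mesothelium. The study, by contrast, reports genes higher in each tissue after adjustment, and the reason for this difference was not tested. Under the call used here 9.6% of all genes passed, 5.22% as higher in visceral and 4.39% as higher in parietal mesothelium. With 10 markers, a count of 1 in each direction is too small to set their share apart from these. The median difference, visceral minus parietal on the log2 scale of the authors' RMA signal, was 0.01 over the markers and 0.0015 over all genes. The arrays of the tissues did not overlap for 7 markers, while 56.3% of all genes showed no overlap. Of these markers, 4 lay higher in the visceral and 3 in the parietal samples, against 28.9% and 27.4% of all genes. An unadjusted p under 0.05 was reached by 4 markers, and by 27.1% of all genes. In bulk tissue such as this, fewer cells of a type and less RNA per cell cannot be told apart.

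**Figure D1:**
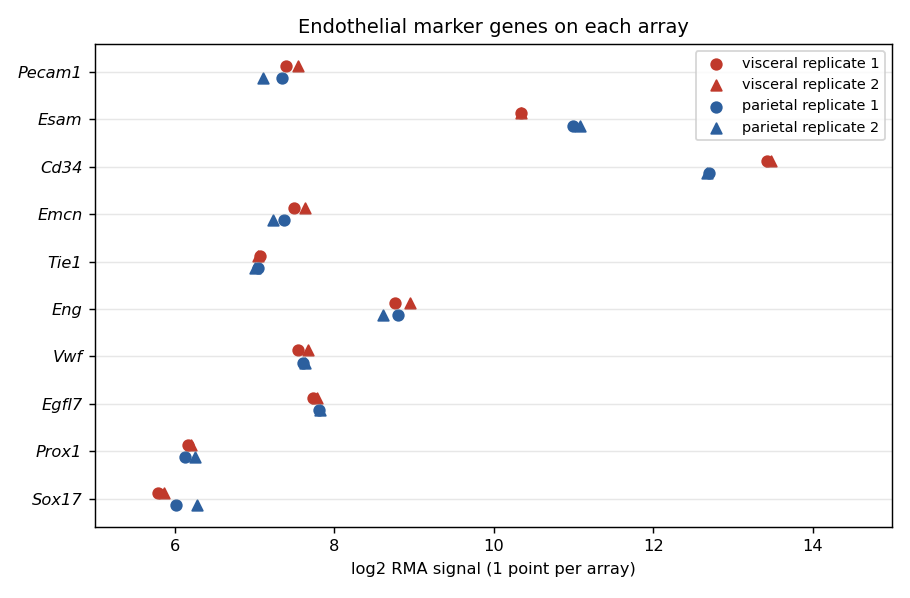
Log2 RMA signal (x axis) of the 10 endothelial markers (y axis). Each point is 1 array, red for visceral and blue for parietal mesothelium, circles for replicate 1 and triangles for replicate 2. Levels of different genes come from different probes and are not to be compared; Cd34 lies at 13.43 and 13.47 in visceral against 12.70 and 12.67 in parietal mesothelium, and Esam at 10.34 on both visceral arrays against 10.99 and 11.08.

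Among the adhesion molecules and sialomucins, Cd34 and Esam were called in opposite directions and Pecam1 and Emcn were not called. Cd34, a sialomucin of the vessel surface, had a log2 signal of 13.43 and 13.47 on the visceral arrays and of 12.70 and 12.67 on the parietal arrays. Both visceral arrays lay above both parietal ones, and the replicates of a tissue lay close together. The means were 13.45 ± 0.03 (SD, n = 2 arrays) and 12.68 ± 0.02 (SD, n = 2). The log2 difference was 0.77 (standard error 0.08, 95% confidence interval 0.57 to 0.97, adjusted p = 0.00282 from limma), or 1.70-fold. The stretch before the transcription start of Cd34, the marker with the largest difference among the 10, is shown from RefSeq for GRCm38.p6, 250 bases on the plus strand at chr1:194938571-194938820, 5′ to 3′. Capitals mark GGAA, the core of the sites of ETS factors, and ACAAT, a core of the sites of SOX factors, each on either strand.
Cd34: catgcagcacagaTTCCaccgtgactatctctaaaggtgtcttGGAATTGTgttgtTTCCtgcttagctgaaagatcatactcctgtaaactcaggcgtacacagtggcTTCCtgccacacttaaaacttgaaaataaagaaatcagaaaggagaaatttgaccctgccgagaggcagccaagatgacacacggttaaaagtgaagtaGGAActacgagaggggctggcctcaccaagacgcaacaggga
GGAA or its reverse complement TTCC was found 5 times, and ATTGT, the reverse complement of ACAAT, once, sharing its first base with a GGAA. Over 32851 promoter stretches of the same length, 93.4% held GGAA on either strand, with a median of 3 matches, and 27.7% held ACAAT. Promoters were listed for 6 of the 10 markers, 9 stretches in all, and each held GGAA, while ACAAT was also found in that of Emcn. A match is a description of the letters and no evidence of binding.

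Esam, an immunoglobulin-type molecule of endothelial tight junctions, showed the opposite order. Its log2 signal was 10.34 on both visceral arrays and 10.99 and 11.08 on the parietal arrays, so that both parietal arrays lay above both visceral ones. The log2 difference was -0.69 (standard error 0.08, 95% confidence interval -0.90 to -0.49, adjusted p = 0.00450 from limma), or 1.62-fold higher in parietal mesothelium. Esam is among the genes that the study itself lists as different on these arrays, although the study's test as recomputed here did not call it after adjustment.

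Pecam1, the homophilic adhesion molecule CD31 of endothelial junctions, did not pass. Its log2 signal was 7.40 and 7.54 in visceral and 7.35 and 7.11 in parietal mesothelium. The visceral arrays were the higher ones without overlap, but the gap between the nearest arrays of the tissues was smaller than the gap between the parietal replicates. The log2 difference was 0.24 (95% confidence interval -0.04 to 0.52, adjusted p = 0.253 from limma). Emcn, endomucin, a sialomucin of capillary and venous endothelium, stood at 7.49 and 7.64 in visceral and at 7.37 and 7.23 in parietal mesothelium. Its difference of 0.26 (95% confidence interval 0.02 to 0.51) did not pass after adjustment (adjusted p = 0.161 from limma). The confidence intervals given here are for single genes and are not adjusted for the number of genes.

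**Figure D2:**
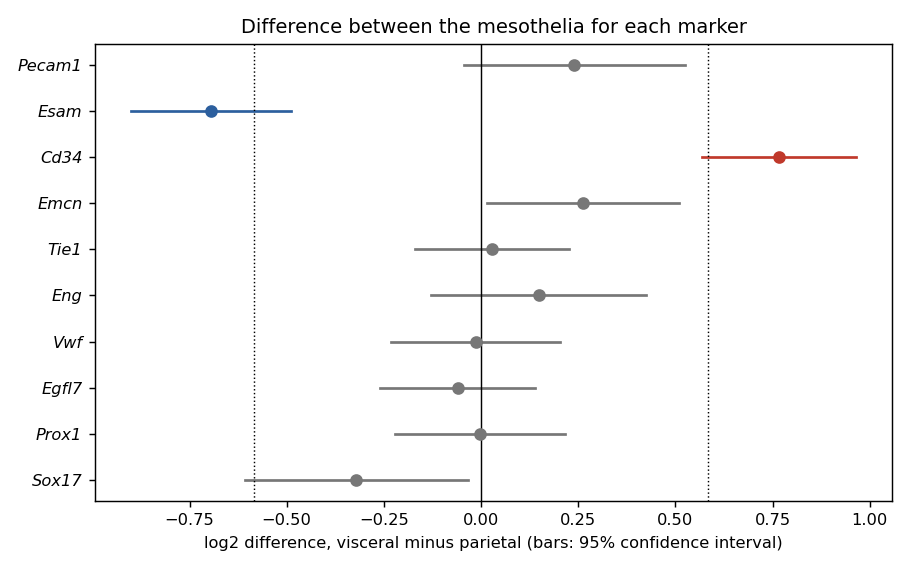
Visceral minus parietal log2 difference (x axis) for each marker (y axis), with the 95% confidence interval from limma as a bar. Red marks the gene called higher in visceral, blue the gene called higher in parietal mesothelium and grey the 8 not called; dotted lines stand at a fold of 1.5, and of the grey bars only that of Sox17, from -0.61 to -0.03, crosses one.

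Both receptors among the markers differed little. Tie1, the orphan receptor kinase that pairs with the angiopoietin receptor Tek, lay at 7.07 and 7.05 in visceral and at 7.05 and 7.01 in parietal mesothelium. Its difference was 0.03 (95% confidence interval -0.17 to 0.23, adjusted p = 0.873 from limma), and that of Tek was 0.17 (adjusted p = 0.376). Eng, endoglin, a co-receptor for BMP9 and TGF-beta, had 8.76 and 8.95 in visceral and 8.80 and 8.61 in parietal mesothelium, with overlap. Its difference of 0.15 did not pass (95% confidence interval -0.13 to 0.43, adjusted p = 0.469 from limma). Acvrl1, the ALK1 receptor that binds BMP9 together with endoglin, was 1.65-fold higher in visceral mesothelium (log2 difference 0.72, adjusted p = 0.00685). Whether the difference of Acvrl1 exceeds that of Eng was not tested.

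The secreted markers differed by less than their standard errors. Vwf, von Willebrand factor, which tethers platelets and is stored in endothelial granules, was at 7.55 and 7.68 in visceral and at 7.61 and 7.64 in parietal mesothelium, the parietal values lying between the visceral ones. The difference was -0.014 (95% confidence interval -0.23 to 0.20, adjusted p = 0.949 from limma). Egfl7, a matrix protein that endothelial cells deposit around sprouting vessels, was at 7.73 and 7.78 in visceral and at 7.81 and 7.82 in parietal mesothelium. Its difference of -0.060 did not pass (95% confidence interval -0.26 to 0.14, adjusted p = 0.704). The gene Egfl7 also holds the microRNA gene Mir126a, a regulator of VEGF signaling in endothelium, which has a probe of its own on the array. The mature 3′ product is printed from RefSeq for GRCm38.p6, plus strand, chr2:26591402-26591423, with its seed, bases 2 to 8, in capitals.
mmu-miR-126a-3p: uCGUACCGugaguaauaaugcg
The Mir126a probe gave 4.20 and 4.18 in visceral and 4.16 and 4.16 in parietal mesothelium, a difference of 0.03 (95% confidence interval -0.17 to 0.23, adjusted p = 0.871 from limma), and did not pass either. All 4 values lay far below 7.73, the median signal of all genes, so a small difference there says little about the gene. This probe stands for the gene of the precursor, so its signal does not measure the mature microRNA.

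Of the transcription factors, neither passed. Prox1, the factor of lymphatic endothelial identity, was at 6.17 and 6.20 in visceral and at 6.13 and 6.25 in parietal mesothelium, a difference of -0.0023 (95% confidence interval -0.22 to 0.22, adjusted p = 0.992 from limma). Sox17, a factor of arterial endothelium, was at 5.79 and 5.86 in visceral and at 6.01 and 6.28 in parietal mesothelium, with no overlap. Its difference was -0.32 (95% confidence interval -0.61 to -0.03), unadjusted p = 0.0342 and adjusted p = 0.144 from limma. The related factors Sox7 and Sox18 differed by -0.14 and 0.06 and did not pass (adjusted p = 0.469 and 0.829).

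Among the 8 markers not called, the intervals of 7 lay within a fold of 1.5 in both directions. For these 7 a difference in RMA signal as large as the fold used for the call lies outside the interval. For Sox17 the bound was 1.52-fold higher in parietal mesothelium. RMA damps small differences of dim probes, and Pecam1, Emcn, Tie1, Vwf and Prox1 lay below the median signal of all genes. Egfl7 lay just above it, with means of 7.76 in visceral and 7.82 in parietal mesothelium. The intervals of all these genes therefore do not exclude such a fold in the RNA itself. Whether that of Eng does was not tested. The SDs within a tissue ran from 0.0007 for Esam on the visceral arrays to 0.19 for Sox17 on the parietal arrays. Visceral replicate 2 was above visceral replicate 1 for 9 of the 10 markers, Tie1 being the exception, while 50.9% of all genes were higher on that array. Parietal replicate 2 was above parietal replicate 1 for 5 markers, with 50.0% of all genes. The mean signal of 6 markers lay below 7.73, the median of all genes.

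**Figure D3:**
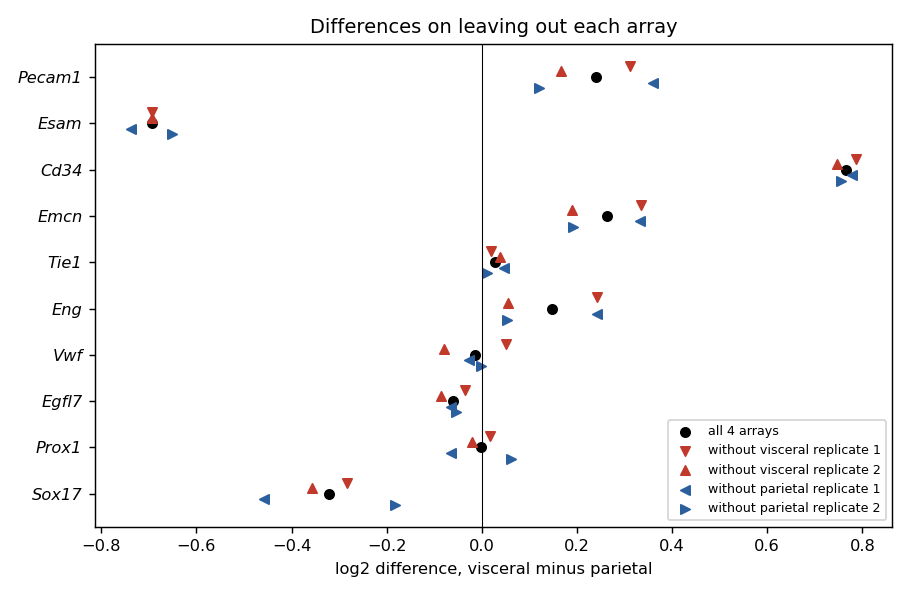
Visceral minus parietal log2 difference (x axis) for each marker (y axis) with all 4 arrays (black) and without each array in turn (red for a visceral, blue for a parietal array left out). Cd34 stays between 0.75 and 0.79 and Esam between -0.74 and -0.65, while Vwf and Prox1 lie on both sides of 0.

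On leaving out each array in turn, Cd34 and Esam were called each time, with adjusted p from limma of 0.00757 to 0.0186 and of 0.00954 to 0.0262. The lone array of a tissue is then taken to vary like the others. The difference of Pecam1 moved between 0.12 and 0.36, that of Eng between 0.05 and 0.24 and that of Sox17 between -0.46 and -0.18. The pattern over the 4 arrays most like that of Cd34, by the Euclidean distance between the deviations of a gene from its own mean, was found for Cep128, Fbln1 and Fam20a, at distances of 0.02, 0.04 and 0.05 on the log2 scale. For Esam it was found for Lrp11, Gas1 and Mir717, at 0.01, 0.01 and 0.03. With 4 arrays and 19937 genes compared, close patterns are many, and this is a description only.

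Further endothelial genes were taken from lists of the junction and surface, receptors, transcription factors, secreted and haemostatic proteins, arteries, veins, capillaries and lymphatics. Of 86 measured genes, limma called 19 in favour of visceral and 6 in favour of parietal mesothelium, or 22.1% and 6.98%, against 5.22% and 4.39% of all genes. Their median difference was 0.01, like that of the markers. The lists were drawn up with earlier results of these data known, so the shares are a description. Some of these genes are also made by other cells, mesothelial cells included, so the shares do not measure endothelium alone.

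Among 12 genes of the endothelial junction and surface, 1 was higher in each tissue. Cdh5, VE-cadherin, the cadherin of endothelial junctions, was at 7.13 and 7.24 in visceral and at 7.75 and 7.82 in parietal mesothelium, a difference of -0.60 (adjusted p = 0.00920 from limma). It was not called without visceral replicate 1 or without parietal replicate 2. Podxl, podocalyxin, a sialomucin of the same family as Cd34, was higher in visceral mesothelium by 1.42 (adjusted p = 0.00142). Cd93, a lectin-like receptor of the endothelial surface, differed by 0.49 at an adjusted p of 0.0462 but missed the fold of 1.5. The remaining 9 genes ran from -0.29 for Jam2 to 0.37 for Clec14a and did not pass, with Icam2 at 0.0011. In this group, then, Esam and Cdh5 were higher in parietal and Cd34 and Podxl in visceral mesothelium.

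Of 13 receptors, limma called 5 in favour of visceral and 0 in favour of parietal mesothelium, with a median of 0.17. Without adjustment, 2 receptors higher in parietal mesothelium had a p under 0.05 by limma and 0 by the test named in the study's methods. Ednrb, an endothelin receptor, differed by 1.68, Calcrl, the receptor of adrenomedullin, by 1.44, S1pr1, a receptor for sphingosine 1-phosphate, by 1.03, Adgrf5, an adhesion G protein-coupled receptor, by 0.82 and Acvrl1 by 0.72. Adgrf5 was called on only 1 of the 4 occasions on which an array was left out. Kdr, the main VEGF receptor of endothelium, differed by -0.50 and Ramp2, the partner of Calcrl, by 0.43, with adjusted p of 0.0409 and 0.0300 from limma, and both missed the fold of 1.5. Over all the wider lists, 7 genes passed the adjusted p and missed the fold. Cd93, Ramp2, Ets1 (0.54) and Ephb4 (0.43) were the 4 higher in visceral mesothelium, and Kdr, Jag2 (-0.47) and Car4 (-0.53) the 3 higher in parietal mesothelium. These genes were named after their values were seen.

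Of 12 transcription factors, Fli1, Lyl1 and Gata2, which also act in blood cells, were higher in visceral mesothelium by 1.31, 0.68 and 0.59, and Klf4 was higher in parietal mesothelium (-0.81). Erg and Tal1 differed by 0.02 each and did not pass. Lyl1 was not called without visceral replicate 2, Gata2 without visceral replicate 2 or parietal replicate 2, and Klf4 without either visceral replicate. Gata2 was also lost under 2 of the 3 other normalizations.

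Of 11 measured genes of secreted and haemostatic proteins, 4 were higher in visceral mesothelium. They were Plat, the tissue plasminogen activator (2.04), the anticoagulant thrombomodulin Thbd (1.72), the protein C receptor Procr (0.92) and the apelin ligand Apln (0.85). Edn1, the precursor of the vasoconstrictor endothelin, was higher in parietal mesothelium (-1.97), the reverse of its receptor Ednrb. Nos3, the endothelial nitric oxide synthase, differed by -0.21 and Angpt2 by 0.16, and neither passed (adjusted p = 0.247 and 0.287 from limma).

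**Figure D4:**
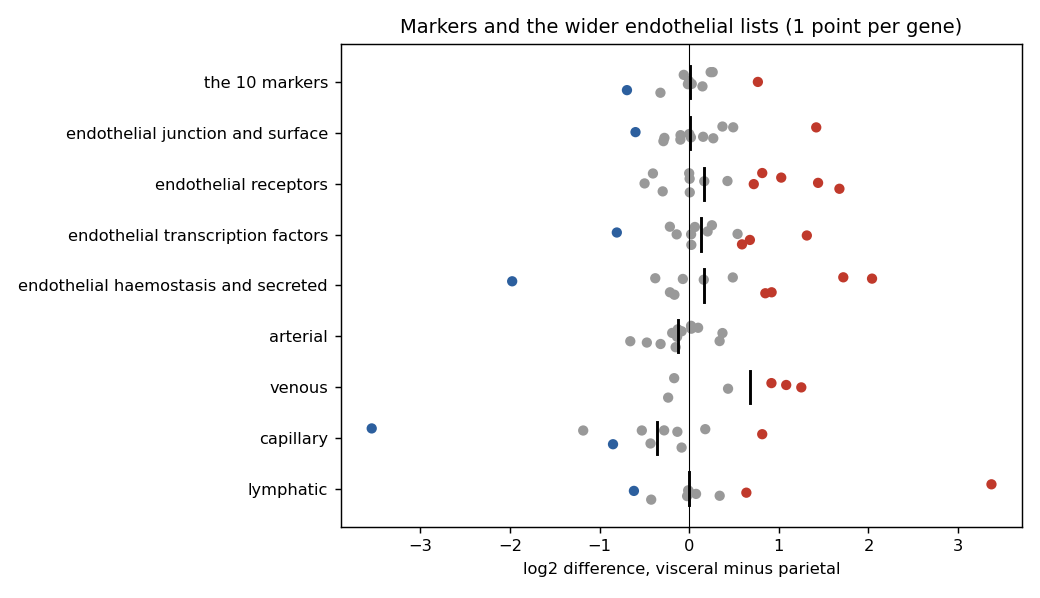
Visceral minus parietal log2 difference (x axis) of the 10 markers and of the genes of 8 wider endothelial lists (y axis). Points are single genes, with red for a call in favour of visceral and blue for one in favour of parietal mesothelium, and grey for no call, spread vertically for legibility; black bars are medians, which run from -0.36 for capillaries to 0.68 for veins.

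The lists of vessel types differed in their counts. Of the 13 arterial genes, limma called 0, with a median of -0.13. Without adjustment, 5 had a p under 0.05 by limma, of which 2 were higher in visceral samples, and 1 by the test named in the study's methods. Their differences ran from -0.66 for Efnb2, the arterial ephrin, which has an adjusted p of 0.149, to 0.37 for Notch1. Jag2, a Notch ligand, passed the adjusted p (0.0377 from limma) at a difference of -0.47 and missed the fold. Of 6 venous genes, 3 were higher in visceral mesothelium, namely Ackr1, the chemokine receptor of venules (1.25), Nr2f2, the factor of venous identity (1.08), and the leukocyte adhesion molecule Vcam1 (0.92), and the median was 0.68. Nr2f2 and Vcam1 are also made by mesothelial and stromal cells. Of 10 capillary genes, the water channel Aqp1 was 11.6-fold higher in parietal mesothelium (-3.54), Meox2 was higher there too (-0.85) and the fatty acid transporter Cd36 was higher in visceral mesothelium (0.81). The difference between the venous and arterial lists was not tested.

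Of 9 measured lymphatic genes, 6 were not called, 2 favoured visceral and 1 favoured parietal mesothelium, and the median was -0.0029. Lyve1, a hyaluronan receptor of lymphatic endothelium that tissue macrophages also carry, was 10.4-fold higher in visceral mesothelium, at 12.13 and 12.17 against 8.77 and 8.78 (log2 difference 3.37, adjusted p = 3.32e-05 from limma). Prox1 differed by -0.0023, Flt4, the VEGF-C receptor of lymphatic vessels, by -0.023, Foxc2 by -0.0029 and Stab2 by 0.08, and none of these passed (lowest adjusted p 0.666). Itga9 was higher in visceral (0.64) and Pdpn, podoplanin, which mesothelium also makes, higher in parietal mesothelium (-0.62). Both were lost without visceral replicate 1 and without parietal replicate 2. Of 12 macrophage markers, 11 were higher in visceral mesothelium on the same arrays, with a median difference over the list of 1.66 and the largest difference at C1qc (2.94). The part of macrophages in the difference of Lyve1 was not tested.

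**Figure D5:**
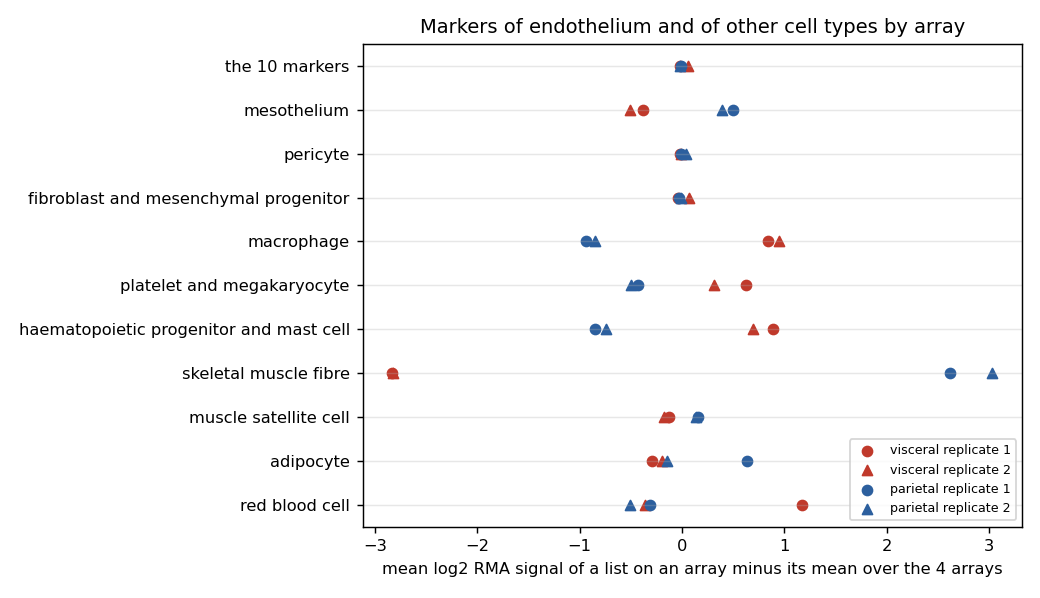
Mean log2 RMA signal of a list on an array minus the mean of that list over the 4 arrays (x axis), for the 10 endothelial markers and 10 lists of other cell types (y axis). Red points are visceral and blue points parietal arrays, circles replicate 1 and triangles replicate 2. The 10 markers, among which Cd34 and Esam differ in opposite directions, stay within 0.06 of their mean. The skeletal muscle list lies 2.83 and 2.82 below its mean on the visceral arrays.

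Several lists of other cell types differed between the tissues in most of their genes, unlike the 10 endothelial markers. The mean log2 signal of the markers was 8.17 and 8.25 on the visceral and 8.18 and 8.17 on the parietal arrays. In that mean Cd34 (0.77) and Esam (-0.69) offset each other, so it does not show that each marker was level. The pericyte and fibroblast lists, with genes called in both directions, also stayed near their means (largest deviations 0.04 and 0.07). All 12 genes of skeletal muscle fibres were higher in parietal mesothelium, those with the lowest adjusted p being Myl1 (-7.28), Acta1 (-5.48) and Casq1 (-5.55), with list means of 6.86 and 6.87 on the visceral and 12.31 and 12.72 on the parietal arrays. Of 12 mesothelial markers, 7 were higher in parietal mesothelium, those with the lowest adjusted p being Msln (-2.14), Krt7 (-1.78) and Gpm6a (-1.001), and 1, Wt1 (0.84), was higher in visceral mesothelium. The list means were 11.54 and 11.42 against 12.43 and 12.32, so the labelled cell type had its markers in both tissues. Their part in the differences of Cd34 and Esam was not tested.

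Cells other than endothelium that carry Cd34 or Esam had lists of their own. Of 9 measured genes of fibroblasts and mesenchymal progenitors, Mfap5 (1.16) and Dpt (0.73) were higher in visceral and Pi16 (-1.24) and Dpp4 (-0.68) higher in parietal mesothelium. The list means were 10.90 and 11.002 on the visceral and 10.91 and 10.93 on the parietal arrays. Of 7 measured genes of blood progenitors and mast cells, 4 were higher in visceral mesothelium, those with the lowest adjusted p being the mast cell genes Cpa3 (4.63), Mcpt4 (4.02) and Fcer1a (0.95). Kit, a receptor of both blood progenitors and mast cells, was the other gene called (1.53, adjusted p = 0.00394 from limma). The progenitor genes Flt3 (0.15) and Hlf (0.20) and the mast cell receptor chain Ms4a2 (-0.38) did not pass (adjusted p = 0.530, 0.214 and 0.107 from limma). The list means were 8.44 and 8.25 against 6.71 and 6.81. Of 6 measured genes of platelets and megakaryocytes, Pf4 (2.15) and Ppbp (2.53) were higher in visceral mesothelium, and Treml1 (0.57) missed the fold. Gp9 (0.48) and the integrin chains Itga2b (-0.07) and Itgb3 (-0.048) did not pass. The list means were 8.79 and 8.48 against 7.74 and 7.67, and Ppbp alone was at 9.58 on visceral replicate 1 and at 7.95 on visceral replicate 2. The part of these cell types in the differences of Cd34 and Esam was not tested.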

How the data were processed

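RNA of 2 visceral and 2 parietal mesothelium samples was hybridized to Affymetrix Mouse Gene 1.0 ST arrays. The authors made the deposited log2 values with RMA in Partek 6.6, which corrects background, gives the arrays like distributions (medians 7.38 to 7.41) and damps small differences of dim probes; the array library is not given in the sources used here. Of 35556 probes, 21789 had 1 gene symbol in the platform annotation, 1621 several and 12146 none. Symbols were checked by gene identifier in a RefSeq table of GRCm38.p6, and 0 changed. Where a gene had several probes, the brightest on average was kept, which gave 19938 genes.

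Visceral and parietal arrays were compared over all genes with limma 3.58.1 (R 4.3.3), without a block, in place of the ANOVA of the methods. Code was tested on simulated data. The markers, lists, tests and alternatives were chosen with earlier results of these data known. Genes named are the 10 markers, called genes of the endothelial lists and the 3 patterns nearest to each called marker. From every other list at most 3 were taken by adjusted p. Other genes named fall outside this rule and were chosen after their values were seen. They include Wt1, Dpp4, Kit, those not called and those that missed the fold. Alternatives were other tests, thresholds, variance priors, normalizations, a filter on dim probes, other probe choices, the replicate number as a block, and omitting single arrays. No scan date was used, so array batches were not analysed here.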

Additional observations from a re-analysis of the deposited data

How the results depend on the processing

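Of 164 recomputed marker differences under 17 alternatives, 154 kept direction and call. Many could not change direction, since settings that alter only the test, threshold, filter or variance prior leave the difference as it was. The same holds for the replicate block and, with 1 probe per marker, for the probe choices. The ANOVA of the methods, adjusted over all genes, called 0 of the 19938 genes in each direction. It so called 0 markers and 0 of the wider endothelial genes. The study reports genes in both directions after adjustment, which this recomputation did not reproduce. Cd34 was still at 0.77 and Esam at -0.69 (adjusted p = 0.121 and 0.138 from the ANOVA). Without adjustment the ANOVA called 1 marker in each direction, as limma did. It gave 18 and 5 wider genes for visceral and parietal mesothelium, against 876 and 706 of all genes. At a fold of at least 2, and by the limma test against a fold of 1.5 (treat), 0 markers were called in each direction and Cd34 and Esam, at 0.77 and -0.69, lost their calls. The wider genes then numbered 10 for visceral and 2 for parietal mesothelium at a fold of 2, and 8 and 2 by treat. Over all 19938 genes the counts were 521 and 457 at a fold of 2, and 393 and 331 by treat. Prox1 changed sign with cyclic loess, to 0.012. Leaving out each array in turn gave -0.066 to 0.061 for Prox1, -0.079 to 0.051 for Vwf, and 1 marker called in each direction. The wider genes numbered 16 to 20 in visceral and 3 to 9 in parietal mesothelium, with 3 without visceral replicate 1 and 9 without parietal replicate 1. Of 25 wider genes called, 18 kept their call each time. With the replicate number as a block in limma, Cd34 had an adjusted p of 0.00412 and Esam of 0.00574, and no marker changed its call. The wider counts were 19 and 7 with the block, against 1087 and 921 over all genes. With 2 pairs the numbers are not shown to pair the samples; the deviations of same-numbered arrays correlated at 0.356 over genes. Only 4 of the 10 markers passed the filter on dim probes.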

Other observations

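Pericytes, which wrap small vessels, had a list of 9 genes with a median difference of 0.01. Pdgfrb, the receptor that recruits pericytes and that fibroblasts also carry, was higher in visceral mesothelium (log2 difference 1.02, adjusted p = 0.00118 from limma), while Rgs5, a signaling regulator of pericytes, and Anpep were higher in parietal mesothelium (-1.18 and -0.84, adjusted p = 0.00161 and 0.0124). Cspg4, Notch3, Kcnj8 and Higd1b, chosen after their values were seen, differed by 0.16, -0.027, 0.14 and 0.01 and did not pass.

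Replicates of a tissue differed in markers of blood and fat. Slc4a1, the anion exchanger of red blood cells, was at 9.29 on visceral replicate 1 and at 7.19 to 7.32 on the other arrays, and Alas2, a haem synthesis enzyme of red cell precursors, was at 7.67 against 6.42 to 6.67. Of the platelet genes, Ppbp was at 9.58 on visceral replicate 1 and at 7.95 on visceral replicate 2. Adipoq, the adipocyte hormone adiponectin, was at 7.50 on parietal replicate 1 and at 5.96 to 5.99 on the other arrays, and the hormone Retn at 9.46 against 6.95 to 7.46. Of 6 measured adipocyte genes and 2 of red blood cells limma called 0, with 1 and 0 at an unadjusted p under 0.05, and the test named in the study's methods gave 0 of both lists. Without visceral replicate 1 the difference of Cd34 was 0.79 and that of Esam -0.69, and without parietal replicate 1 they were 0.78 and -0.74. Of 6 muscle satellite cell genes limma called 0, with 3 at an unadjusted p under 0.05 and 2 by the test named in the study's methods. Myod1, which reached an adjusted p under 0.05, differed by -0.55, and Pax7, the defining factor of these cells, by -0.018.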
